A study of Mus musculus with 6 samples.

Results

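The genes Mki67, Top2a, Ccna2, Ccnb2, Cdk1, Pbk and Ckap2, which act in dividing cells, were followed through sorted skeletal muscle stem cells of young and old mice. The genes were picked by name, with earlier results of these data known. All 7 were found among the 12067 lines of the deposited expression table. Their counts set beside the shares of all lines are therefore a description and no independent support. Muscle stem cells (satellite cells) are the resident cells that rebuild muscle fibres, and in uninjured muscle they rest outside the cell cycle. They came from limb muscles of male C57BL/6 mice, were sorted for VCAM and against the surface proteins CD31, CD45 and Sca1, and were then stained with ThiolTracker Violet (5 uM), a dye for reduced glutathione (GSH). The young group held cells of 4-month-old mice, 1 animal per library, kept whole after staining because nearly all of them were GSH-high. Old cells, from 23-month-old mice with 2 animals pooled per library, were divided into a GSH-high and a GSH-low fraction. Each of the 3 groups had 2 libraries, and the labels name no gene deletion and no drug treatment in any of them.

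A resting cell keeps the genes of mitosis low. When it enters the cycle, D-type cyclins release E2F factors from the RB family, the genes of DNA replication are switched on, and the genes of mitosis follow. Many mitotic genes share a promoter layout in which NF-Y binds CCAAT boxes and the DREAM complex, a repressor of resting cells, or the MYB-MuvB activator contacts an element called CHR (cell cycle genes homology region). Cyclin A2 and cyclin B2 are partners of the kinase CDK1. Mki67 encodes Ki-67, the chromosome coat protein used in pathology to count cycling cells, and Top2a encodes the topoisomerase that untangles replicated DNA. Pbk (also called TOPK) encodes a mitotic protein kinase and Ckap2 a protein of the spindle microtubules.

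The RefSeq promoter table (GRCm38.p6) held the start regions of Mki67, Top2a, Ccnb2, Cdk1 and Ckap2. Those of Mki67, Top2a, Cdk1 and Ckap2 are shown because they carry the motifs by which mitotic genes are recognised. The letters run 5′ to 3′ on the gene's strand, which is the minus strand for each, and end 1 base before the RefSeq start, except for Cdk1, where the last 26 bases are annotated exon and were left out. Capitals mark CHR (TTTGAA or TTTAAA), the NF-Y box (CCAAT) and, in Cdk1, an E2F box (TTTCGCGC or TTTGGCGC), each read on both strands, so that TTCAAA and ATTGG are matches on the opposite strand. No motif contains another. The regions are chr7:135716380-135716529 for Mki67, chr11:99024190-99024339 for Top2a, chr10:69352939-69353062 for Cdk1 and chr8:22185820-22185969 for Ckap2.
Mki67: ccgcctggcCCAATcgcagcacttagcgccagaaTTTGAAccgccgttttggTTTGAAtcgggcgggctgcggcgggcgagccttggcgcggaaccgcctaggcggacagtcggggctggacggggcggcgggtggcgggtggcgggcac
Top2a: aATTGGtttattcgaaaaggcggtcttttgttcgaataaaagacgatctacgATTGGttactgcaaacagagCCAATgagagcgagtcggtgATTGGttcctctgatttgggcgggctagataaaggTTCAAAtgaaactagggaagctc
Cdk1: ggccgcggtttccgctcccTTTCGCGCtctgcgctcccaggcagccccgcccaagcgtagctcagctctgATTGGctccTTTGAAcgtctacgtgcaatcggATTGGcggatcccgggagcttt
Ckap2: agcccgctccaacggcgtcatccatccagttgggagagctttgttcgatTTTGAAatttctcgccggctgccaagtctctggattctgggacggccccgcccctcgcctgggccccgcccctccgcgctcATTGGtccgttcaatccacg

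Within the 250 bases before the start, a CHR was found in 5 of the 5 promoters, against 25.2% of 32851 mouse promoters of the same length. An NF-Y box was also found in 5 of 5, against 33.8% of all promoters. Both together were present in 5 of 5, against 8.78%. At least 2 NF-Y boxes stood in 4 of the 5 (10.1% of all) and at least 2 CHR in 3 (5.33% of all). In Cdk1, the CHR nearer the start lies from 15 to 10 bases before it. Those bases are annotated exon and are not in the printed sequence. The E2F box stood in the Cdk1 promoter, from 131 to 124 bases before the start, and in 0.654% of all promoters. Ccnb2 has its CHR from 167 to 162 bases before the start, outside the 150 bases nearest to it, and CCAAT beginning 87, 54 and 21 bases before it. These matches describe letters in a window and were not tied to the expression values by a test.

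**Figure D1:**
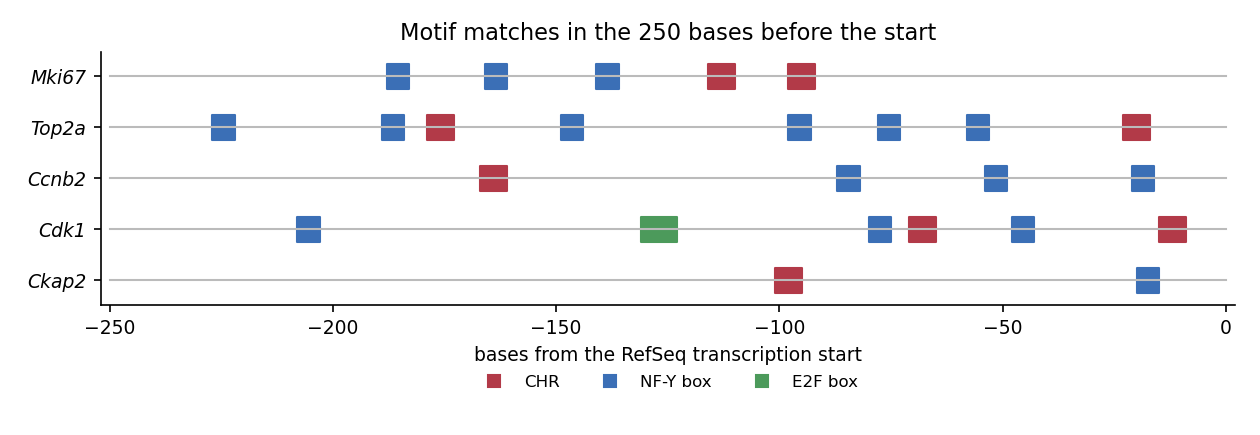
Positions of CHR (red), NF-Y box (blue) and E2F box (green) matches on either strand in the 250 bases before the RefSeq start of 5 genes; the horizontal axis is the distance from that start in bases. Each of the 5 promoters holds at least 1 CHR and 1 NF-Y box, and only Cdk1 of these 5 holds an E2F box.

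Levels are given as RPKM, reads scaled to exon length in kilobases and to an effective library size, which allows genes to be compared per length. That size was 0.9627 to 1.0242 times the recovered reads of the library. Scaling by library size only, an alternative used below, leaves this factor out. The 6 libraries held 47.0 to 68.8 M reads in the genes of the table, as recovered from the RPKM values, with the fewest in the old GSH-low libraries (47.0 and 50.71 M). Every line of the table had at least 2 libraries above 0.5 RPKM. Mki67, Cdk1 and Top2a had fewer than 2 old libraries above that floor and so are in the table by way of the young libraries, and a difference from young was then built into their presence. Every p-value below rests on 2 libraries per group, comes from limma's moderated test (limma-trend) on log2(RPKM + 0.1) over all lines, is two-sided and was adjusted by the Benjamini-Hochberg method. The labels name 1 animal per young library, and do not say whether the old fractions of one number came from the same pool.

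All 7 genes were lowest on average in old GSH-low cells, intermediate in old GSH-high cells and highest in young cells. This order of the means was seen in 24.1% of all lines of the table. In 6 of the 7, the exception being Ccna2, no library overlapped with those of the neighbouring group, which held for 8.20% of all lines. Summed over the 7 genes, the level was 16.76 and 20.6 RPKM in the young libraries, 6.98 and 12.18 RPKM in old GSH-high and 3.735 and 4.401 RPKM in old GSH-low. Together the 7 genes had 3900 and 4475 reads in young, 1632 and 2696 in old GSH-high and 592 and 687 in old GSH-low. RNA was measured in bulk, so fewer cells in the cycle and less RNA per cell cannot be told apart.

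**Figure D2:**
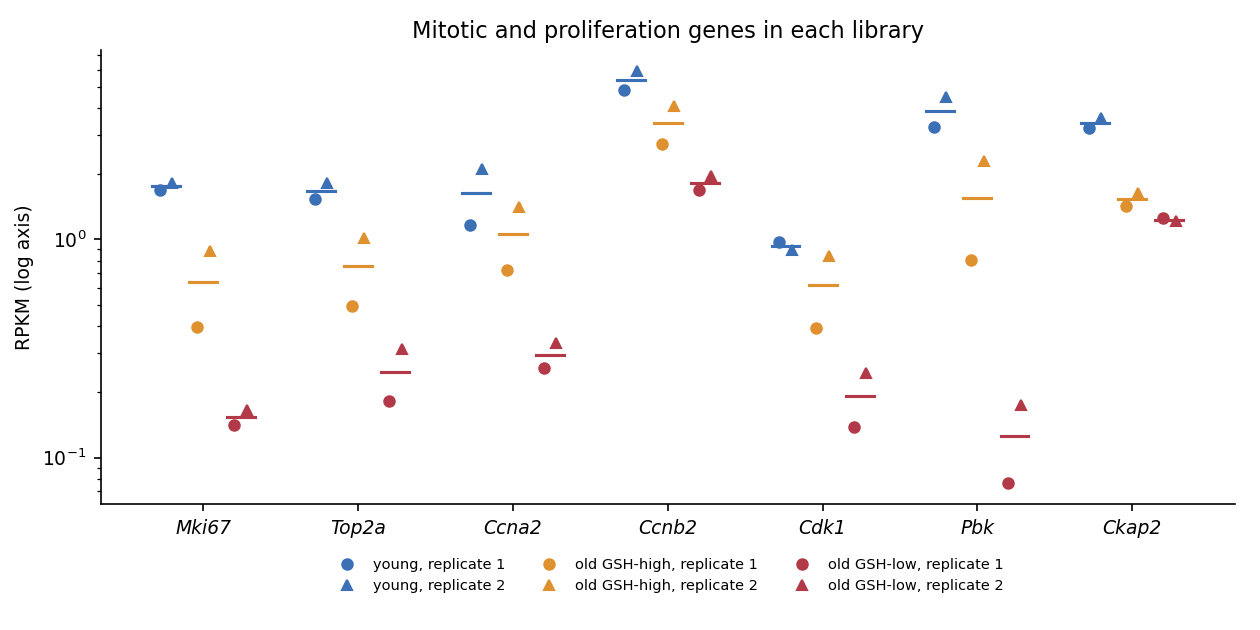
RPKM of the 7 genes in each library on a log axis; circles are replicate 1, triangles replicate 2, and horizontal bars group means (n = 2). Old GSH-low libraries lie below old GSH-high libraries for every one of the 7 genes, and Pbk spans the widest range, from 0.0761 to 4.49 RPKM.

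Mki67 (ENSMUSG00000031004.8, GRCm38 chromosome 7, 135689784 to 135716361, minus strand) stood at 1.69 and 1.81 RPKM in the young libraries, 0.398 and 0.882 in old GSH-high and 0.141 and 0.165 in old GSH-low. The 3 groups did not overlap, and the old GSH-high libraries differed from each other more than the pairs of the other groups did. These levels rest on 1033 and 1070 reads in young, 277 and 549 in old GSH-high and 73 and 80 in old GSH-low. Mean Mki67 was 11.4-fold lower in old GSH-low than in young, a log2 fold change of -2.87 ± 0.32 (SE; limma adjusted p = 0.000287).

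Top2a (ENSMUSG00000020914.17, chromosome 11, 98992943 to 99024189, minus strand) followed the same course, with 1.54 and 1.81 RPKM in young, 0.497 and 1.02 in old GSH-high and 0.182 and 0.313 in old GSH-low. Old GSH-low was 6.76-fold below young in mean RPKM, a log2 fold change of -2.37 ± 0.33 (limma adjusted p = 0.000902). Of the gene's 9013 exon bases, 122 are shared with the small RNA gene model Gm23451. Its paralogue Top2b, the topoisomerase that resting cells also use, averaged 8.29 ± 1.10 RPKM (SD, n = 2) in young, 8.25 ± 0.32 in old GSH-high and 8.18 ± 0.104 in old GSH-low. The ratio of Top2a to Top2b was 0.205 and 0.2 in the young libraries, 0.0587 and 0.127 in old GSH-high and 0.0224 and 0.038 in old GSH-low. For Top2b the 95% interval of the log2 difference was -0.27 to 0.24 between old GSH-low and young and -0.27 to 0.25 between the old fractions.

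The cyclins differed in level and in how well their groups were separated. Ccnb2 (cyclin B2; ENSMUSG00000032218.7, chromosome 9, 70407692 to 70421547, minus strand) was the most abundant of the 7 genes per length in every group, with 4.86 and 5.91 RPKM in young, 2.74 and 4.11 in old GSH-high and 1.69 and 1.95 in old GSH-low. Its groups did not overlap, and old GSH-low lay 2.95-fold below young (log2 fold change -1.51 ± 0.20, limma adjusted p = 0.000687).

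Ccna2 (cyclin A2; ENSMUSG00000027715.9, chromosome 3, 36564865 to 36572150, minus strand) had 1.17 and 2.10 RPKM in young, 0.722 and 1.41 in old GSH-high and 0.258 and 0.336 in old GSH-low. Young replicate 1 fell between the old GSH-high libraries, so those groups overlapped, while both old GSH-low libraries lay below the other 4. Old GSH-low was 5.51-fold below young (log2 fold change -2.08 ± 0.35, limma adjusted p = 0.00244). Of the 4083 exon bases of Ccna2, 510 are shared with Exosc9, a subunit of the RNA exosome on the opposite strand, and without strand information reads there cannot be assigned. Exosc9 itself had 5.71 and 5.36 RPKM in young, 5.92 and 5.43 in old GSH-high and 4.73 and 4.77 in old GSH-low, and passed the test in none of the 3 comparisons (limma adjusted p = 0.242, 0.83 and 0.139 for the old fractions, old GSH-high against young and old GSH-low against young).

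Cdk1 (the kinase that drives entry into mitosis; ENSMUSG00000019942.13, chromosome 10, 69335146 to 69352938, minus strand) was the least abundant of the 7 genes per length in young cells. Its RPKM was 0.971 and 0.897 in young, 0.393 and 0.839 in old GSH-high and 0.138 and 0.244 in old GSH-low. Old GSH-high replicate 2 lay just below the nearer young library, and both old GSH-low libraries were lower than all others. Old GSH-low lay 4.88-fold below young (log2 fold change -1.85 ± 0.34, limma adjusted p = 0.00394).

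Pbk (ENSMUSG00000022033.9, chromosome 14, 65805837 to 65817822, plus strand) had the largest fold change of the 7 in both comparisons with old GSH-low. It had 3.28 and 4.49 RPKM in young, 0.807 and 2.29 in old GSH-high and 0.0761 and 0.174 in old GSH-low. The old GSH-low values rest on 7 reads (95% Poisson interval 2.81 to 14.4) and 15 reads (8.4 to 24.7), intervals that cover counting error only, against 357 and 472 reads in young. The mean was 31.0-fold lower in old GSH-low than in young, and the log2 fold change was -4.16 ± 0.43 (limma adjusted p = 0.000198). Since the added 0.1 RPKM is of the size of the old GSH-low levels, it shrinks this value, and limma-voom on the recovered reads gave -5.00.

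Ckap2 (ENSMUSG00000037725.8, chromosome 8, 22168160 to 22185819, minus strand) had another shape. Its RPKM was 3.26 and 3.58 in young, 1.43 and 1.64 in old GSH-high and 1.25 and 1.21 in old GSH-low. Both old groups lay well below young, and the old fractions lay close to each other without overlap. Old GSH-low was 2.78-fold below young (log2 fold change -1.40 ± 0.14, limma adjusted p = 0.000189), and old GSH-high 2.23-fold below it (-1.11 ± 0.14, limma adjusted p = 0.000842).

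The comparison of old GSH-low with young covers both the age and the GSH fraction. All 7 genes passed the test with lower levels in old GSH-low, where 16.8% of all lines of the table were called lower. In all 7 both old GSH-low libraries lay below both young libraries, which held for 34.0% of all lines. Their median log2 fold change was -2.08, against -0.00 over all lines. The 7 calls were kept when any 1 of the 6 libraries was left out. They were kept under every other setting tried, except that Cdk1 was not tested when at least 1 RPKM in 2 libraries was required, under which the other 6 passed. The 2 comparisons with young share the young libraries.

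Old GSH-high was compared with young to set cells of like staining at both ages side by side. Mki67, Top2a, Ccnb2, Pbk and Ckap2 fell, 5 of 7, where 12.3% of all lines were called lower. The median log2 fold change was -1.11 over the 7 genes and 0.01 over all lines. Mki67 was 2.73-fold lower (-1.40 ± 0.32, limma adjusted p = 0.0126), Top2a 2.21-fold lower (-1.12 ± 0.33, limma adjusted p = 0.0354) and Pbk 2.51-fold lower (-1.42 ± 0.43, limma adjusted p = 0.039). Ccnb2 was 1.57-fold lower (-0.66 ± 0.20, limma adjusted p = 0.0377). The kinase Cdk1 and its partner Ccna2 did not pass, with log2 differences of -0.60 (95% interval -1.39 to 0.18; limma adjusted p = 0.223) and -0.59 (-1.38 to 0.21; limma adjusted p = 0.244). These intervals include changes as large as those of Ccnb2.

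Old GSH-high replicate 1 carried much of this comparison. In 7 of 7 genes replicate 2 of old GSH-high was higher than replicate 1, by 1.15-fold for Ckap2 to 2.84-fold for Pbk, an order seen in 49.5% of all lines. In young and in old GSH-low, replicate 2 was the higher in 6 of 7 genes, against 46.0% and 50.4% of all lines. Without old GSH-high replicate 1 only the call of Ckap2 was kept (-1.02, limma adjusted p = 0.0108), and Mki67 missed the threshold (-0.91, limma adjusted p = 0.063). Top2a then had -0.66 (limma adjusted p = 0.211), Pbk -0.72 (0.201) and Ccnb2 -0.38 (0.24). Without young replicate 1 the calls of Mki67, Ccnb2 and Ckap2 were kept, 3 of 7, and without young replicate 2 those of Mki67 and Ckap2, 2 of 7. Without either old GSH-low library the call of Ccnb2 ended (limma adjusted p = 0.052 and 0.0522), since those libraries share the estimate of spread. Scaled by library size only, Ccnb2 (-0.60, limma adjusted p = 0.0603) and Pbk (-1.36, limma adjusted p = 0.0512) missed the threshold and 3 genes were called. Over the settings other than leaving out a library, the limma adjusted p ran from 0.00251 to 0.0603 for Ccnb2 and from 1.48e-06 to 0.0512 for Pbk. Both low ends came with the replicate number added to a fit of the 4 libraries compared. That number was not shown to pair libraries. With one library left in a group, the lone library was assumed to vary like the others.

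**Figure D3:**
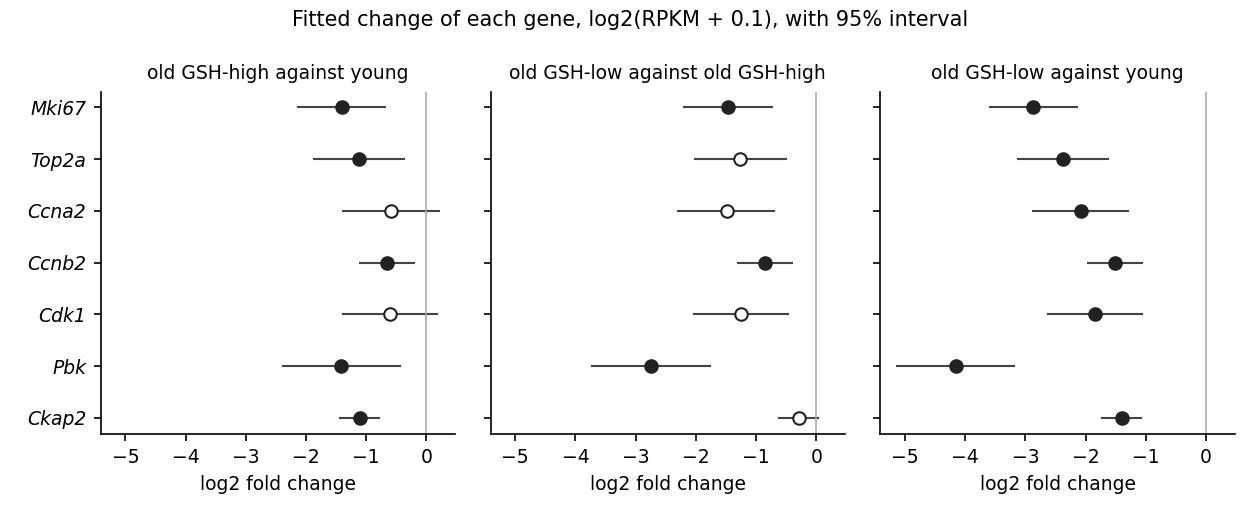
Fitted log2 fold changes of the 7 genes in the 3 comparisons, with 95% intervals on the log2(RPKM + 0.1) scale; filled points passed an adjusted p of 0.05 and open points did not. All points lie below 0, and 7 points are filled for old GSH-low against young, 5 for old GSH-high against young and 3 for the old fractions.

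Old GSH-low was compared with old GSH-high to ask what separates the fractions of equal age. Pbk, Mki67 and Ccnb2 fell, 3 of 7, where 1.54% of all lines were called lower. For all 7 genes both old GSH-low libraries lay below both old GSH-high libraries, which held for 28.0% of all lines. The median log2 difference was -1.26 over the 7 genes and -0.00 over all lines. Pbk was 12.4-fold lower in mean RPKM (log2 fold change -2.75 ± 0.43, limma adjusted p = 0.00865), Mki67 4.18-fold lower (-1.47 ± 0.32, limma adjusted p = 0.0371) and Ccnb2 1.88-fold lower (-0.85 ± 0.20, limma adjusted p = 0.0497).

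The 4 genes that did not pass had point estimates of a like size, apart from Ckap2. Ccna2 differed by -1.49 (95% interval -2.29 to -0.70; limma adjusted p = 0.0504), Top2a by -1.26 (-2.01 to -0.51; limma adjusted p = 0.073) and Cdk1 by -1.25 (-2.03 to -0.47; limma adjusted p = 0.0892). These intervals are not adjusted for the number of lines and exclude 0. For Ckap2 the difference was -0.29, with an interval of -0.62 to 0.03 that includes 0 (limma adjusted p = 0.317). Whether Ckap2 differed from the other genes in its response to the fraction was not tested.

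The count of 3 moved with single libraries. Without old GSH-low replicate 1 no gene passed (0 of 7; Pbk -2.43, limma adjusted p = 0.066), where 6 of 7 had an unadjusted p under 0.05 with all libraries. Pbk alone passed without old GSH-low replicate 2 (limma adjusted p = 0.0265) or old GSH-high replicate 2 (0.0271). Every gene but Ckap2 passed without the other old GSH-high library, replicate 1, the lower of its pair here (6 of 7). Without either young library, Ccna2 passed as well (4 of 7; limma adjusted p = 0.0288 and 0.0314). With a pseudocount of 1, which shrinks changes of low genes, only Pbk passed (-1.12, limma adjusted p = 0.0343). With limma-voom Ccnb2 missed the threshold (limma adjusted p = 0.0862), while Top2a (-1.56, limma adjusted p = 0.0367) and Ccna2 (-1.75, limma adjusted p = 0.0487) passed. Ccna2 also passed on the 4 old libraries alone (limma adjusted p = 0.036), where Mki67 missed the threshold (limma adjusted p = 0.0665). Mki67 missed it with a pseudocount of 0.5 as well (limma adjusted p = 0.0637). Over the settings other than leaving out a library, the limma adjusted p of Pbk ran from 0.000608 to 0.0343 and that of Ccnb2 from 0.0066 to 0.0862. That of Top2a ran from 0.0237 to 0.111 and that of Ccna2 from 0.00852 to 0.106. The low ends for these genes came with the replicate number added to a fit of the 4 old libraries. That number was not shown to pair libraries. For Mki67 the limma adjusted p ran from 0.0157 to 0.0843.

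Across the 6 libraries the 7 profiles ran closely together. Against the mean of the standardised log2 profiles, of which each gene is a part, Pearson's r was 0.9988 for Ccnb2, 0.9974 for Top2a, 0.9955 for Mki67, 0.9926 for Pbk, 0.9762 for Cdk1, 0.97 for Ccna2 and 0.9124 for Ckap2. The points share 3 groups and the libraries' depth, so r describes the group differences as much as the spread within groups. Among the other genes with a mean of at least 1 RPKM, the 5 profiles most like this mean were those of Mcm6 (r = 0.9964), Rab11a (0.9943), Siah1b (0.9938), Uhrf1 (0.9929) and Cav1 (0.9923). Mcm6, a subunit of the replicative helicase, had 10.6 and 10.7 RPKM in young, 8.60 and 9.58 in old GSH-high and 7.52 and 7.93 in old GSH-low. Uhrf1, which brings the maintenance methyltransferase to replicated DNA, had 1.90 and 2.65, 0.842 and 1.58, and 0.398 and 0.615 RPKM in the same order. Their shapes were alike and their sizes were not, since mean Uhrf1 was 4.49-fold and mean Mcm6 1.38-fold lower in old GSH-low than in young.

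Other genes of mitosis were read from a list of 72, of which 36 were in the table. In old GSH-low against young, 29 of the 36 fell and 1 rose, with a median log2 fold change of -1.55. In old GSH-high against young 10 fell and 1 rose (median -0.90), and between the old fractions 1 fell and none rose (median -0.54). Over all lines, 18.9% rose and 35.8% were called in either direction in old GSH-low against young, 15.6% and 27.9% in old GSH-high against young, and 3.14% and 4.68% between the old fractions. Of the 36, 18 had fewer than 2 old libraries above 0.5 RPKM and are in the table by way of the young libraries. The counts and medians against young are therefore a description and no independent support. The count of 29 became 15 without old GSH-low replicate 1. The count of 10 became 3 when replicate 1 of old GSH-high was left out and 15 when its replicate 2 was. It became 5 without young replicate 2 and 21 with limma-voom. Racgap1, a regulator of cytokinesis, averaged 2.58 ± 0.536 RPKM (SD, n = 2) in young, 0.909 ± 0.151 in old GSH-high and 0.527 ± 0.239 in old GSH-low, and old GSH-low differed from young by -2.14 ± 0.28 (limma adjusted p = 0.000739). Spc24, a kinetochore subunit, averaged 1.42 ± 0.0811, 0.621 ± 0.0433 and 0.275 ± 0.0788 RPKM, with -2.03 ± 0.22 for old GSH-low against young (limma adjusted p = 0.000291).

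Nek2, a kinase of centrosome separation, was the 1 listed gene that fell between the old fractions. Its level was 0.794 and 0.938 RPKM in young, 0.243 and 0.404 in old GSH-high and 0.0561 and 0.0092 in old GSH-low, where it had 13 and 2 reads. The log2 fold change between the old fractions was -1.67 ± 0.33 (limma adjusted p = 0.0259). That call ended without old GSH-low replicate 1 (limma adjusted p = 0.052), old GSH-low replicate 2 (0.13) or old GSH-high replicate 2 (0.182), and with a pseudocount of 1 (0.088). Ccnb1, the cyclin B1 partner of CDK1, had 0.648 and 0.799 RPKM in young, 0.178 and 0.349 in old GSH-high and 0.0185 and 0.241 in old GSH-low. Its old GSH-low libraries held 4 and 49 reads and straddled the lower old GSH-high library. No old library of Ccnb1 lay above 0.5 RPKM, so it is in the table by way of the young libraries. A difference from young was then built into its presence. Ccnb1 fell in old GSH-low against young (-2.03 ± 0.49, limma adjusted p = 0.0138), a call that ended without old GSH-low replicate 1 (-1.26, limma adjusted p = 0.06) or young replicate 2 (-1.89, limma adjusted p = 0.0567).

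Pttg1, which encodes securin, the inhibitor of the cohesin-cleaving protease, went the other way. It had 17.6 and 15.0 RPKM in young, 21.9 and 20.2 in old GSH-high and 25.4 and 25.2 in old GSH-low. The rise in old GSH-low against young was 1.55-fold (0.64 ± 0.10, limma adjusted p = 0.00187), and it was the 1 mitotic gene of the list that rose.

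**Figure D4:**
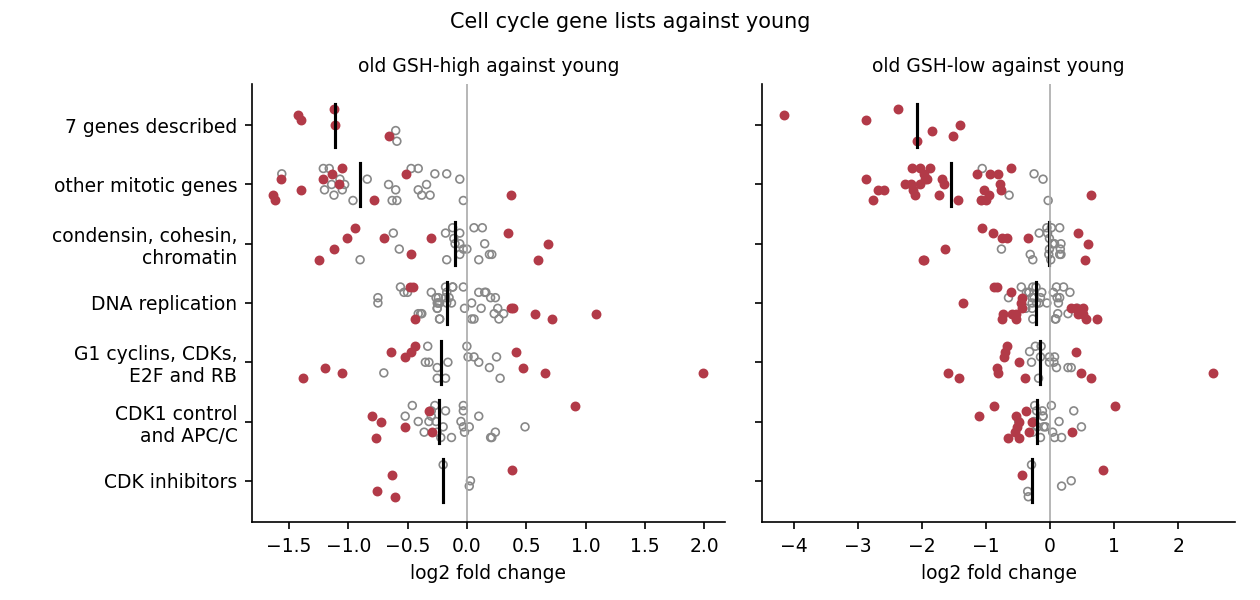
Log2 fold changes against young for the 7 genes and for 6 lists of cell cycle genes, on the log2(RPKM + 0.1) scale; each point is a gene, filled where it passed an adjusted p of 0.05, and black bars are medians. In old GSH-low the median was -2.08 for the 7 genes and -1.55 for the other mitotic genes, and between -0.29 and -0.02 for the other 5 lists. Of the 7 genes 3, and of the 36 other mitotic genes 18, are in the table by way of the young libraries, against 0 to 2 genes in each other list. The contrast of these medians is therefore partly built in.

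Genes that build and shape chromosomes had medians near 0. Of 29 genes of condensin, cohesin and chromatin, 8 fell and 3 rose in old GSH-low against young (16.8% and 18.9% of all lines). In old GSH-high against young 7 fell and 3 rose (12.3% and 15.6% of all lines). The medians were -0.02 and -0.10. Without a replicate block, none of the 29 passed limma-trend or limma-voom on all 6 libraries between the old fractions, where 3 had an unadjusted p under 0.05, and 1 passed without old GSH-high replicate 1. When old GSH-low replicate 1 was left out, 5 fell and none rose against young. Without old GSH-high replicate 1 or 2, 1 rather than 3 rose in old GSH-high. Stmn1 (stathmin, which takes microtubules apart) had 14.2 and 12.7 RPKM in young, 4.38 and 7.16 in old GSH-high and 3.44 and 3.28 in old GSH-low. It fell by 1.97 ± 0.20 on the log2 scale in old GSH-low against young (limma adjusted p = 0.000187). The condensin subunit Smc2 averaged 1.87 ± 0.0979 RPKM (SD, n = 2) in young and 0.538 ± 0.108 in old GSH-low (-1.64 ± 0.20, limma adjusted p = 0.000482), and Hmgb3, a chromatin protein, 7.68 ± 0.479 and 3.61 ± 0.241 RPKM (-1.07 ± 0.11, limma adjusted p = 0.000237).

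DNA replication genes were called in both directions. Of 49 in the table, 12 fell and 7 rose in old GSH-low against young, where 16.8% of all lines fell and 18.9% rose. In old GSH-high against young 3 fell and 5 rose (12.3% and 15.6% of all lines). Between the old fractions 1 fell, near the 1.54% of all lines. The 7, the 3 and the 5 are smaller shares of the 49 genes than those over all lines. In old GSH-low against young, 5 fell and 2 rose without its replicate 1, 5 and 5 without its replicate 2, and 7 and 5 without young replicate 1. In old GSH-high against young they were 0 and 2 without old GSH-high replicate 1 and 3 and 2 without old GSH-high replicate 2. Without either young library 2 fell between the old fractions. The helicase subunit Mcm3 averaged 8.81 ± 0.614 RPKM (SD, n = 2) in young, 6.49 ± 0.432 in old GSH-high and 5.21 ± 0.0135 in old GSH-low (-0.75 ± 0.10 against young, limma adjusted p = 0.000967). Rrm2, the small subunit of ribonucleotide reductase, had 14.01 and 14.18 RPKM in young, 28.3 and 32.1 in old GSH-high and 20.0 and 20.5 in old GSH-low. It was 2.14-fold higher in old GSH-high than in young (1.09 ± 0.09, limma adjusted p = 9.13e-05) and 1.44-fold higher in old GSH-low (0.52 ± 0.09, limma adjusted p = 0.00299). Between the old fractions Rrm2 fell by 0.57 ± 0.09 (limma adjusted p = 0.00957), a call that ended without old GSH-low replicate 1 (0.0907), old GSH-low replicate 2 (0.0696) or old GSH-high replicate 2 (0.118). Pcna, the polymerase clamp often read as a sign of proliferation, averaged 41.6 ± 3.06, 47.8 ± 0.379 and 44.9 ± 2.64 RPKM, and its difference of old GSH-low from young was 0.11 (95% interval -0.09 to 0.31).

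At the entry to the cycle, cyclin D1 and cyclin D2 moved in opposite directions. Ccnd1 had 32.0 and 21.8 RPKM in young, 8.91 and 11.5 in old GSH-high and 9.39 and 10.1 in old GSH-low, a fall of 1.43 ± 0.18 on the log2 scale in old GSH-low against young (limma adjusted p = 0.000639). Ccnd2 had 0.352 and 0.566 RPKM in young, 2.01 and 2.16 in old GSH-high and 3.13 and 3.08 in old GSH-low. It was 6.76-fold higher in old GSH-low than in young (2.55 ± 0.20, limma adjusted p = 4.88e-05). Young replicate 1 lay below the floor of the table for Ccnd2, so this gene is in the table by way of the old libraries. A rise from young was then partly built into its presence. E2f1, an activator of replication genes, averaged 3.37 ± 0.227 RPKM (SD, n = 2) in young and 1.05 ± 0.110 in old GSH-low (-1.60 ± 0.19, limma adjusted p = 0.000463). Of the 26 G1 genes, 9 fell and 4 rose in old GSH-low against young (16.8% and 18.9% of all lines). In old GSH-high against young 7 fell and 4 rose (12.3% and 15.6% of all lines). Leaving out old GSH-low replicate 1 gave 6 and 2 for the former, and leaving out its replicate 2 gave 5 and 3. Leaving out old GSH-high replicate 1 gave 4 and 2 for the latter, and leaving out its replicate 2 gave 4 and 3. None passed limma-trend between the old fractions, where 4 had an unadjusted p under 0.05. Ccnd2 was called higher there with limma-voom (0.58, adjusted p = 0.0308), and 2 genes were called higher without either young library.

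The control of CDK1 and the anaphase-promoting complex was read from 32 genes. Of these, 11 fell and 2 rose in old GSH-low against young (16.8% and 18.9% of all lines). In old GSH-high against young 6 fell and 1 rose (12.3% and 15.6% of all lines). Against young, old GSH-low had 4 that fell and 1 that rose without its replicate 1, and 9 and 0 without its replicate 2. Old GSH-high had 3 and 0 without its replicate 1, 4 and 0 without its replicate 2, and 9 and 2 without young replicate 2. Without a replicate block, none of the 32 passed limma-trend or limma-voom on all 6 libraries between the old fractions, where 4 had an unadjusted p under 0.05. The CDK1-binding subunit Cks2 averaged 30.4 ± 6.06 RPKM (SD, n = 2) in young and 19.0 ± 0.556 in old GSH-low (-0.66 ± 0.13, limma adjusted p = 0.00625), and Cks1b 27.6 ± 2.85 and 15.1 ± 3.53 RPKM (-0.88 ± 0.16, limma adjusted p = 0.00364). The kinase Wee1, which holds CDK1 inactive, was 1.65-fold lower in old GSH-high than in young (26.1 ± 0.31 against 43.1 ± 1.07 RPKM, limma adjusted p = 0.00427). Its relative Pkmyt1 was 1.76-fold lower there (4.64 ± 0.0577 against 8.15 ± 0.27 RPKM, limma adjusted p = 0.000884).

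Among 7 CDK inhibitors in the table, 1 rose and 1 fell in old GSH-low against young, near the 18.9% and 16.8% of all lines. In old GSH-high against young 1 rose and 3 fell (15.6% and 12.3% of all lines). Without old GSH-high replicate 1, none rose and 1 fell in old GSH-high, and without its replicate 2 none rose and 3 fell. In old GSH-low 3 fell without young replicate 2 and none without old GSH-low replicate 2. Cdkn1a (p21) had 123 and 97.7 RPKM in young, 72.4 and 71.2 in old GSH-high and 82.3 and 91.2 in old GSH-low. It fell in old GSH-high (-0.61 ± 0.12, limma adjusted p = 0.0061), while its difference of old GSH-low from young missed the threshold (-0.34, 95% interval -0.60 to -0.07; limma adjusted p = 0.0522). That difference passed without young replicate 2 (-0.50, limma adjusted p = 0.00426). Fitted by limma-voom it passed too (-0.34, adjusted p = 0.0305). Over 16 settings its adjusted p ran from 0.00392 to 0.264, and it passed in 3. Cdkn2d (p19INK4d, an inhibitor of CDK4 and CDK6) had 6.32 and 6.10 RPKM in young, 7.89 and 8.32 in old GSH-high and 11.7 and 10.5 in old GSH-low. Its rise in old GSH-low against young was 1.79-fold (0.82 ± 0.10, limma adjusted p = 0.000461). Between the old fractions Cdkn2d was the 1 inhibitor that rose (0.45 ± 0.10, limma adjusted p = 0.0427), a call that ended without any 1 of the 4 old libraries (limma adjusted p from 0.112 to 0.294) and with limma-voom (0.0713).

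Markers of the sorted cells and of others moved with the same groups, and their part in the results above was not tested. All 12 satellite cell markers were in the table, and their summed level was 4050 and 4230 RPKM in young, 3700 and 3850 in old GSH-high and 3210 and 3350 in old GSH-low. The abundant members Sdc4, Des and Myod1 weigh most in this sum. Their means were 1848, 756 and 680.9 RPKM in young, 1609, 549.9 and 817.9 in old GSH-high and 1399, 499 and 612 in old GSH-low. Pax7, the transcription factor that marks these cells, rose from 7.79 ± 0.204 RPKM (SD, n = 2) in young to 11.9 ± 1.03 in old GSH-low (0.60 ± 0.10, limma adjusted p = 0.00245). It was the 1 marker of the 12 called higher there (18.9% of all lines), and 4 were called lower (16.8% of all lines). Those were Calcr, Des, Itga7 and Sdc4, with log2 fold changes of -1.02, -0.60, -0.52 and -0.40. The other 7 were not called. Tendon markers, 10 of 10 in the table, summed to 47.1 and 47.5 RPKM in young, 662 and 833 in old GSH-high and 2710 and 3100 in old GSH-low. Endothelial markers, 12 of 12, summed to 40.5 and 46.0, 89.6 and 91.6, and 22.2 and 27.2 RPKM in the same order. The tendon sum thus ran opposite to the 7 genes over the 3 groups, while the endothelial sum was highest in old GSH-high. Fibro-adipogenic markers, 10 of 10, summed to 1110 and 1210 RPKM in young, 1310 and 1340 in old GSH-high and 1840 and 1970 in old GSH-low. Not all of them followed the sum. Col3a1, a fibrillar collagen chain, fell from 320.1 RPKM in young to 95.3 in old GSH-low (-1.73 ± 0.15, limma adjusted p = 7.94e-05). Ly6a, which encodes Sca1, averaged 8.81 RPKM in young, 26.4 in old GSH-high and 5.74 in old GSH-low. Lymphocyte markers, 7 of 11 in the table, summed to 3.22 and 3.99, 14.9 and 20.3, and 115 and 123 RPKM. Macrophage and neutrophil markers, 6 of 10, summed to 8.24 and 8.96, 55.2 and 57.6, and 40.8 and 47.9 RPKM. The B-cell gene Ms4a1 had 166 and 165 reads in old GSH-low and 0 in the other 4 libraries, where its deposited 0.2613 RPKM is a replaced zero. Ptprc, which encodes the CD45 that the sort excluded, had 3 reads in each young library, 68 and 124 in old GSH-high and 553 and 493 in old GSH-low.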

How the data were processed

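RNA of 6 libraries (3 groups of 2) was primed with oligo(dT) and read as single ends of 150 bp. The authors deposited RPKM values for 12067 lines. The submitters' processing notes name Trim Galore, STAR, featureCounts, Subread and edgeR and the mouse build mm10 (GRCm38). Versions, and whether strand was used, are not given in the sources used here. Reads per line were recovered as whole numbers for 12060 lines (99.94%, tolerance 0.02 reads plus a relative 1e-07), and 230 values in 144 lines were replaced zeros.

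Values were fitted as log2(RPKM + 0.1) with limma-trend (limma 3.58.1 under R 4.3.3). The model had a mean for each of the 3 groups, used all 6 libraries and left 3 residual degrees of freedom, with no further filter. A line was called at a Benjamini-Hochberg adjusted p under 0.05 over 12067 lines. The pseudocount shrinks changes of low genes. A count model had been planned for a file of counts, and the file holds RPKM. Positions are from GENCODE M21. The 7 genes and all lists were chosen with earlier results of these data known. The text names the 7 genes, part of the up to 3 called genes per list, direction and comparison in order of adjusted p, and Ccnb1, Top2b, Cdkn1a and Pcna. Exosc9, added because it overlaps Ccna2, was named after values were seen. So were the markers Sdc4, Des, Myod1, Pax7, Calcr, Itga7, Col3a1, Ly6a, Ms4a1 and Ptprc. The value of 1 lymphocyte marker is not reported here. On simulated data for 12067 lines with 200 changed, 2-fold changes were recovered for 77.8%, 76.2% and 76.0% of genes in old GSH-low against old GSH-high, old GSH-high against young and old GSH-low against young, and 4-fold changes for 99.6%, 99.4% and 99.8%. The simulated reads had the same dispersion in every line, so genes that vary more between libraries than others were not represented. False calls averaged 9.9%, 8.6% and 10.3% of all calls there and reached 13.68%, 13.43% and 12.68% in single draws. These shares lie above the nominal 0.05. Alternatives were other pseudocounts, scalings, a filter, limma-voom on the recovered reads, fits on 4 libraries, replicate blocks and leaving out each library. Tables were made with pandas 2.3.3, scipy 1.17.1 and numpy 2.4.6, and figures with matplotlib 3.10.9, under Python 3.11.15.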

Additional observations from a re-analysis of the deposited data

How the results depend on the processing

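The log2 fold changes of the 7 genes kept their sign under every setting run. Between the old fractions 565 lines and 3 of the 7 genes were called. Fitted on the 4 old libraries alone, 936 lines were called, and with a replicate block in those 4 libraries 1307 lines. Of the 7 genes, 1 was called with a pseudocount of 1, 5 with a replicate block over all 6 libraries and 6 with the block in 4. Of 179 genes of the cell cycle lists, 3 were called, where 4.68% of all lines were. On the 4 libraries alone 5 were called, and 5 with the block over 6. The block in 4 called 15, among them Stmn1, Cks1b and Cdc16, which fell. The 3, the 5 on the 4 libraries alone and the 15 were smaller shares of the 179 genes than the lines called were of all lines. In old GSH-high against young the block in 4 libraries called 6 of the 7 genes, Ccna2 included (adjusted p = 0.0428). In old GSH-high against young, scaling by library size only left 3 of the 5 calls. That scaling moved the share of lower calls over all lines from 44% to 34% in old GSH-high against young and from 47% to 36.6% in old GSH-low against young. Leaving out 1 library gave 228 to 932 lines, 0 to 6 of the 7 genes and 0 to 6 list genes between the old fractions; 1579 to 4070, 1 to 5 and 21 to 52 in old GSH-high against young; and 2224 to 4659, 7 and 43 to 87 in old GSH-low against young. The lowest counts came without old GSH-low replicate 1 (228 and 2224 lines, 43 list genes) and old GSH-high replicate 1 (1579 lines, 21 list genes); the causes were not tested. The replicate numbers were not shown to pair libraries: differences of replicate 1 from 2 correlated at -0.11 (young and old GSH-high), -0.25 (young and old GSH-low) and 0.08 (old fractions). A crossed block, chosen after seeing the data, called 3432 lines and 5 of the 7 genes in old GSH-high against young, and 5299 and 7 in old GSH-low against young. Old GSH-low levels of Pbk rest on 7 and 15 reads, which limits their precision.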
